A study of Homo sapiens with 12 samples.

Results

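The genes described here are those for translation initiation factors and their close relatives, as measured by RNAseq in HEK293T cells, a widely used human embryonic kidney line, treated with the phenylhydrazone AA263 or its analogs AA263yne and AA263-5. They were taken from the deposited results by symbol: names that begin with EIF1 to EIF6, without the eIF2 kinases and without pseudogenes, but with the 3 eIF4E-binding proteins. This gave 52 of the 23292 symbols. Genes were tested where the normalized mean reached 10, as it did for 51 of them, and EIF1AX-AS1, at a mean of 2.22, was not tested. The symbols are not all initiation factors in the strict sense: 3 are antisense or divergent transcripts (EIF1AX-AS1, EIF1B-AS1 and EIF3J-AS1), EIF4A3 encodes the helicase of the exon junction complex, EIF5A an elongation and termination factor, and EIF4ENIF1 a transporter of eIF4E. The 49 symbols other than the antisense or divergent transcripts were sorted by role.

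There were 4 groups of 3 samples each: DMSO vehicle and 10 µM AA263, AA263yne or AA263-5, each for 6 h. The samples are called wild type in the labels, which give the line as HEK293T in one field and as HEK293 in another. The study made analogs of AA263, a compound known from earlier work, as activators of ATF6, a branch of the unfolded protein response of the endoplasmic reticulum, and the RNAseq addressed how selective each compound was for ATF6. The files hold, for each gene, a mean over the 12 samples, a log2 fold change over vehicle for each compound and its standard error (SE), so the values of single samples are not analysed here and overlap between groups could not be read. A level given below for a group is therefore implied by that mean and the 3 fold changes, in normalized units, and the SE carries the spread between replicates. All 3 compounds were compared with the same vehicle samples, and the 3 comparisons are not independent of each other.

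Translation initiation begins when eIF2, bound to GTP and the initiator tRNA, joins the small ribosomal subunit together with eIF1, eIF1A, eIF3 and eIF5. The cap-binding protein eIF4E, the scaffold eIF4G and the helicase eIF4A recruit this complex to mRNA, and the eIF4E-binding proteins compete with eIF4G for eIF4E. During endoplasmic reticulum stress the kinase PERK phosphorylates eIF2, which then inhibits its own exchange factor eIF2B and lowers protein synthesis, while mRNAs such as that of ATF4 are still translated. This control acts on the proteins, and RNAseq measures only the mRNAs.

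The initiation factor genes that passed the test changed by less than 1.5-fold, with the exception of EIF4EBP3 with AA263yne. With AA263, 0 of the 51 tested members passed an adjusted p of 0.05 (two-sided Wald test on the deposited estimates, with Benjamini-Hochberg adjustment over 15630 genes), where 2.67% of all tested genes were higher and 2.8% lower. The smallest adjusted p was 0.0964, for EIF2B3, and 10 members (8 higher, 2 lower) had an unadjusted p under 0.05, which is 19.6% of the members as compared to 17.4% of all genes. With AA263yne, EIF5 and EIF3A rose and EIF4EBP2 and EIF4EBP3 fell. These are 3.92% of the members in each direction, near the background of 3.8% higher and 3.08% lower. With AA263-5, 6 members rose (EIF2S3, EIF3A, EIF2A, EIF2B3, EIF4G3 and EIF4A3) and 4 fell (EIF3F, EIF4EBP2, EIF5A and EIF6). These shares of 11.8% and 7.84% stand beside a background of 6.96% and 8.51%, and the difference between these shares was not tested. Without a filter on low genes, EIF2B3, EIF4G3, EIF4A3 and EIF6 lost their calls with AA263-5 and EIF3A, EIF4EBP2 and EIF4EBP3 theirs with AA263yne (adjusted p from 0.0592 to 0.0729).

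The members as a whole barely shifted. Over the 48 members with a mean of at least 100, without antisense transcripts, the median log2 fold change was 0.10 with AA263, 0.08 with AA263yne and 0.02 with AA263-5. The corresponding medians over all 11642 genes at that level were 0.02, 0.02 and 0.03. After removal of a trend on GC content, described below, the members' medians were 0.06, 0.04 and -0.0033, and the median for AA263-5 turned to -0.01 when fold changes were centred on the median of all genes. The median SE of these members was 0.10 in log2 units, as compared to 0.14 over all genes with a mean of at least 100, a set not matched for level. Relative to genes at a like level, the SE ran from 0.676 times (EIF3L) to 4.92 times (EIF4A1). In a bulk sample, a lower level per cell and fewer cells with the RNA cannot be told apart.

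**Figure D1:**
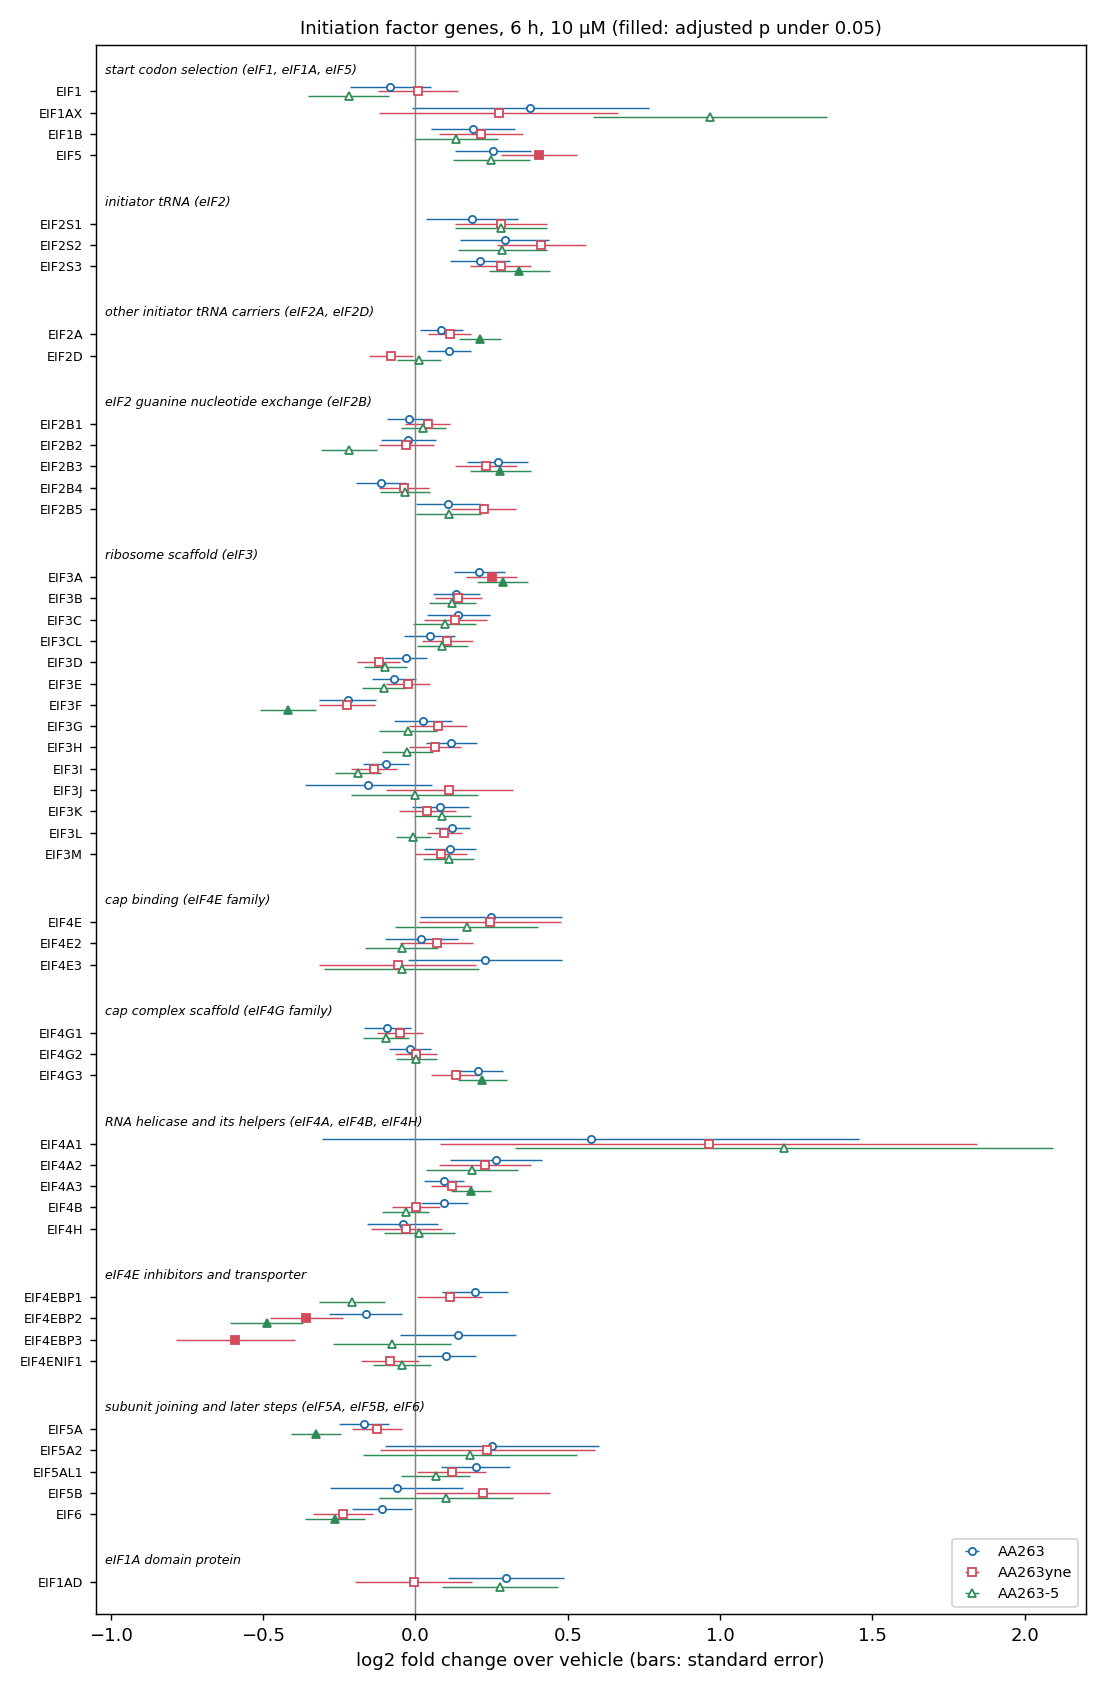
Log2 fold change over vehicle (x axis, bars are SE) of the 49 initiation factor genes, grouped by role, with AA263 (circles), AA263yne (squares) and AA263-5 (triangles); filled symbols have an adjusted p under 0.05. Most genes sit close to 0 with each compound, EIF4EBP2 and EIF3F are among those to the left with all 3, and EIF4A1 has by far the widest bars.

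The 3 subunits of eIF2, which carries the initiator tRNA, had positive fold changes with each compound, and EIF2S3 rose with AA263-5. EIF2S3 (chromosome X, 24054946 to 24078810, plus strand, GRCh38) encodes the γ subunit, which binds GTP and the tRNA. Its level was 3759 with vehicle, 4355 with AA263, 4563 with AA263yne and 4760 with AA263-5. The log2 fold changes were 0.21 ± 0.10 (SE, n = 3 samples per group), 0.28 ± 0.10 and 0.34 ± 0.10, with adjusted p of 0.227, 0.0623 and 0.00769. The α subunit EIF2S1, whose protein is the target of PERK, was at 2049 with vehicle and at 2330, 2488 and 2489 with the compounds in the same order, and did not pass the test (adjusted p from 0.212 to 0.592). The β subunit EIF2S2 was at 2399 with vehicle and at 2939, 3195 and 2924, with its smallest adjusted p, 0.0594, for AA263yne. The rise of EIF2S3 with AA263-5 lost its call when the trend on GC content was removed (log2 0.19, adjusted p = 0.268).

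Of the 5 subunits of eIF2B, the exchange factor that reloads eIF2 with GTP, only EIF2B3 was called. EIF2B3, which works with EIF2B5, went from 2358 with vehicle to 2842, 2768 and 2861 with AA263, AA263yne and AA263-5. Its log2 fold change was 0.27 ± 0.10, 0.23 ± 0.10 and 0.28 ± 0.10, and the last of these passed the test (adjusted p = 0.0409). The catalytic subunit EIF2B5 had 0.11, 0.22 and 0.11 with AA263, AA263yne and AA263-5. The regulatory subunits EIF2B1, EIF2B2 and EIF2B4 had at most 0.04 and ran to -0.22 for EIF2B2 with AA263-5 (adjusted p = 0.0861), and EIF2B4 had -0.11, -0.04 and -0.03. The call for EIF2B3 was lost after centring (log2 0.25, adjusted p = 0.0750) and after removal of the GC trend (0.21, adjusted p = 0.189). EIF2B2 was called lower after the same steps (-0.25, adjusted p = 0.0468, and -0.30, adjusted p = 0.0169).

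EIF2A and EIF2D encode unrelated proteins that can also deliver tRNA to the ribosome. EIF2A rose with AA263-5, from 5301 with vehicle to 6139, a log2 fold change of 0.21 ± 0.07 (adjusted p = 0.0224), and had 0.09 and 0.11 with AA263 and AA263yne. EIF2D had 0.11, -0.08 and 0.01 with AA263, AA263yne and AA263-5. The promoter of EIF2A is shown because, among the 43 member promoters in the RefSeq table, it alone holds the endoplasmic reticulum stress element (CCAAT, a gap of 9 bases and CCACG, searched on both strands; it begins with the letters of a CCAAT box, which was also searched). This is the site through which ATF6 together with NF-Y acts on chaperone genes. The element is in 0.0806% of 27305 promoters of the same 300 bases. It lies at chr3:150546705-150546734 with its flanks (GRCh38.p14, plus strand), from 77 to 59 bases before the RefSeq start of EIF2A and inside the span of the gene in GENCODE, with the element in capitals:
EIF2A promoter: aaacaCCAATTCGCTGTCTCCACGcatgag
On the other strand lies SERP1, which encodes a stress-associated protein of the endoplasmic reticulum membrane, and the RefSeq starts of SERP1 and EIF2A are 291 bases apart. SERP1 had log2 fold changes of 0.31, 0.29 and 0.20 and did not pass the test with any compound (smallest adjusted p = 0.159). EIF2A (chromosome 3, 150546678 to 150586016, plus strand) lies within the span of SERP1 in GENCODE (150541998 to 150603228, minus strand), which reaches past that RefSeq start, and whether the counting used strand is not given in the sources used here. The EIF2A call was lost after centring (log2 0.18, adjusted p = 0.0561) and after removal of the GC trend, which left a log2 fold change of 0.04 (adjusted p = 0.832).

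TGACGTG, a site of ATF6, was in 0 of the 43 member promoters and in 2.00% of all promoters. The second endoplasmic reticulum stress element, ERSE-II, was in 0 of the 43 and in 0.0549% of all, and the cAMP response element TGACGTCA was in 0 of the 43 and in 1.98% of all. TGATGNAAN, the element read by ATF4 and its partners, was in 0 of the 43 and in 3.67% of all. The CCAAT box was in 39.5% of the member promoters and in 35.7% of all. The GC box GGGCGG was in 67.4% of the member promoters and in 44.6% of all, and the ETS site CCGGAAGT was in 18.6% and 4.44%. The NRF1 site was in 18.6% of the member promoters and in 6.28% of all. The YY1 site was in 1 of the 43, that of EIF2B5, and in 0.916% of all. These are matches of letters within 250 bases before and 50 after the start, on either strand. All promoters were counted whether or not their gene was expressed in these cells, and the shares were not tested against each other. Members without an entry in the table were EIF4EBP1, EIF3E, EIF3H, EIF3A, EIF3J-AS1, EIF3CL, EIF3G, EIF2S2 and EIF3L.

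Of the 14 genes of eIF3, the large complex that holds the small ribosomal subunit and the mRNA together, EIF3A rose and EIF3F fell. EIF3A (chromosome 10, 119033670 to 119080817, minus strand), the largest subunit and part of the core, was at 22539 with vehicle, 26061 with AA263, 26820 with AA263yne and 27493 with AA263-5. Its log2 fold change was 0.21 ± 0.08 with AA263 (adjusted p = 0.128), 0.25 ± 0.08 with AA263yne (0.0428) and 0.29 ± 0.08 with AA263-5 (0.00750). EIF3A was thus called with both analogs, and removal of the GC trend left log2 fold changes of 0.15 and 0.16 and ended both calls (adjusted p = 0.377 and 0.251), as centring did for AA263yne (0.23, adjusted p = 0.0653).

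EIF3F (chromosome 11, 7970251 to 8001862, plus strand), a subunit outside the conserved core that has a fold shared with proteasome subunits, was at 7504 with vehicle. It was at 6431 with AA263, 6421 with AA263yne and 5617 with AA263-5, the last of these 25.1% below vehicle. The log2 fold change was -0.22 ± 0.09 (adjusted p = 0.153), -0.22 ± 0.09 (0.126) and -0.42 ± 0.09 (0.000242). It had the smallest adjusted p of any member in the comparisons with vehicle. Its transcript has a low GC content of 40.0%, and relative to genes of like GC content the fold changes were -0.32, -0.35 and -0.60, with all 3 past the threshold (adjusted p = 0.020, 0.00794 and 2.28e-08).

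The other 12 eIF3 genes did not pass the test against vehicle on the deposited fold changes as they stand. The median log2 fold change of all 14 was 0.06, 0.08 and -0.0049 with AA263, AA263yne and AA263-5. EIF3I had the next lowest value, at -0.19 with AA263-5 (adjusted p = 0.0745), and was called lower after centring (-0.22, adjusted p = 0.0346). With the GC trend removed, EIF3B (0.24, adjusted p = 0.0232) and EIF3E (-0.30, adjusted p = 0.00168) were called with AA263-5. EIF3J, a loosely bound subunit, had an SE of 0.21, which is 2.05 times that of genes at a like level, so a change of the size seen for EIF3F was not detectable for it.

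Of the genes for cap binding and its scaffold, EIF4G3 was the one called. The main scaffold EIF4G1 was at 79646 with vehicle and at 74731, 76909 and 74430 with AA263, AA263yne and AA263-5, with an adjusted p of at least 0.441. The related EIF4G2, which supports initiation without eIF4E, was at 73564 and at 72630, 73662 and 73722, a log2 fold change within 0.02 of 0 with each compound. The paralog EIF4G3 was at 7848 and at 9053, 8603 and 9141. EIF4G3 alone of these rose with AA263-5 (0.22 ± 0.08, adjusted p = 0.0416), a call lost after centring (log2 0.19, adjusted p = 0.0873) and after removal of the GC trend (0.12, adjusted p = 0.394). The cap-binding protein EIF4E had a mean of only 203 and log2 fold changes of 0.25 ± 0.23, 0.24 ± 0.23 and 0.17 ± 0.23, and EIF4E2 and EIF4E3, with values between -0.06 and 0.23, did not pass either.

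Among the helicases, EIF4A3 rose slightly with AA263-5 and EIF4A1 was poorly measured under its own symbol. EIF4A3 went from 5696 with vehicle to 6083, 6185 and 6468, and the last passed the test at 0.18 ± 0.07 (adjusted p = 0.0398), again not after centring (log2 0.16, adjusted p = 0.0964) or removal of the GC trend (0.12, adjusted p = 0.317). EIF4A2 had 0.26, 0.23 and 0.19, with an adjusted p of at least 0.373, and the helicase cofactors EIF4B and EIF4H lay between -0.04 and 0.09. EIF4A1, the main helicase of the cap-binding complex, was listed at a mean of 253 per kilobase of transcript, and its log2 fold changes of 0.57, 0.96 and 1.21 each had an SE of 0.88, which is 4.92 times that of genes at a like level.

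A readthrough that covers EIF4A1 was listed at a much higher level. The readthrough transcript SENP3-EIF4A1 (chromosome 17, 7563287 to 7578715), which spans most of EIF4A1 (7572824 to 7579006), had a mean of 14379 per kilobase, while SENP3 itself had 1072. SENP3-EIF4A1 had log2 fold changes of 0.14 ± 0.06, 0.09 ± 0.06 and 0.09 ± 0.06 and passed no test (adjusted p from 0.200 to 0.433). SENP3, a SUMO protease, fell with all 3 compounds, by 0.60, 0.54 and 0.69 on the log2 scale. Given the SE of EIF4A1, a difference between its fold changes and those of the readthrough was not detectable.

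The eIF4E-binding proteins, which block assembly of the cap-binding complex while they are not phosphorylated, included the tested members with the largest falls. EIF4EBP2 (chromosome 10, 70404145 to 70428618, plus strand) was at 3203 with vehicle, 2860 with AA263, 2499 with AA263yne and 2283 with AA263-5. The log2 fold change was -0.16 ± 0.12 (adjusted p = 0.526), -0.36 ± 0.12 (0.0426) and -0.49 ± 0.12 (0.00097). With AA263-5 it fell by 28.7%. Both calls held after centring and after removal of the GC trend (adjusted p = 0.0191 and 2.51e-05).

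With AA263yne, EIF4EBP3 fell by 33.6%. Its level was 266 with vehicle, 293 with AA263, 177 with AA263yne and 252 with AA263-5, and the log2 fold change with AA263yne was -0.59 ± 0.20 (adjusted p = 0.0425). After removal of the GC trend the value was -0.50 and no longer passed (adjusted p = 0.130). The gene is on chromosome 5 (140547662 to 140549576) and overlaps the readthrough ANKHD1-EIF4EBP3 (140401908 to 140549569), which had -0.07 with AA263yne (adjusted p = 0.696). The mean per kilobase was 356 for EIF4EBP3 and 870 for the readthrough.

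EIF4EBP1, the family member best known as a target of ATF4, did not pass the test with any compound. Its level was 9651 with vehicle, 11053 with AA263, 10430 with AA263yne and 8357 with AA263-5. The log2 fold changes of 0.20 ± 0.11, 0.11 ± 0.11 and -0.21 ± 0.11 had adjusted p of 0.346, 0.605 and 0.195. Its transcript is rich in GC (62.9%), and relative to genes of like GC content the value with AA263 was 0.37 (adjusted p = 0.0251). EIF4ENIF1, which carries eIF4E into the nucleus, had 0.10, -0.08 and -0.04.

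Among the factors of start codon selection, EIF5 rose with AA263yne. EIF5 encodes the protein that makes eIF2 hydrolyse GTP once the start codon is found. It was at 7933 with vehicle, 9462 with AA263, 10509 with AA263yne and 9424 with AA263-5, and the log2 fold changes were 0.25 ± 0.13, 0.41 ± 0.13 (adjusted p = 0.0268) and 0.25 ± 0.13. Removal of the GC trend left 0.29 with AA263yne and ended the call (adjusted p = 0.194). EIF1, which guards against starts at wrong codons, had -0.08, 0.01 and -0.22, and its paralog EIF1B had 0.19, 0.22 and 0.13. EIF1AX was listed at a mean of only 44.8, with 0.97 ± 0.38 for AA263-5 (adjusted p = 0.0686), and EIF1AD, a protein with an eIF1A domain, had 0.30, -0.01 and 0.28.

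Of the factors that act at subunit joining and later, EIF5A and EIF6 fell with AA263-5. EIF5A (chromosome 17, 7306999 to 7312463, plus strand), which relieves stalled ribosomes, was at 14272 with vehicle, 12701 with AA263, 13070 with AA263yne and 11379 with AA263-5. The log2 fold change with AA263-5 was -0.33 ± 0.08 (adjusted p = 0.00147), and it kept its call under every alternative tried except the 1.5-fold minimum. EIF6, which keeps the large ribosomal subunit from joining too early, was at 7522, 6967, 6373 and 6262. EIF6 fell with AA263-5 by 0.26 ± 0.10 on the log2 scale (adjusted p = 0.0490), a call that ended after removal of the GC trend (-0.14, adjusted p = 0.448). EIF5B, the factor that joins the subunits, had -0.06, 0.22 and 0.10 with an SE of 0.22, which is 2.49 times that of genes at a like level. EIF5A2, at a mean of 114, had 0.25, 0.24 and 0.18 with an SE of 0.35, and EIF5AL1 had 0.20, 0.12 and 0.07 where EIF5A was below 0.

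**Figure D2:**
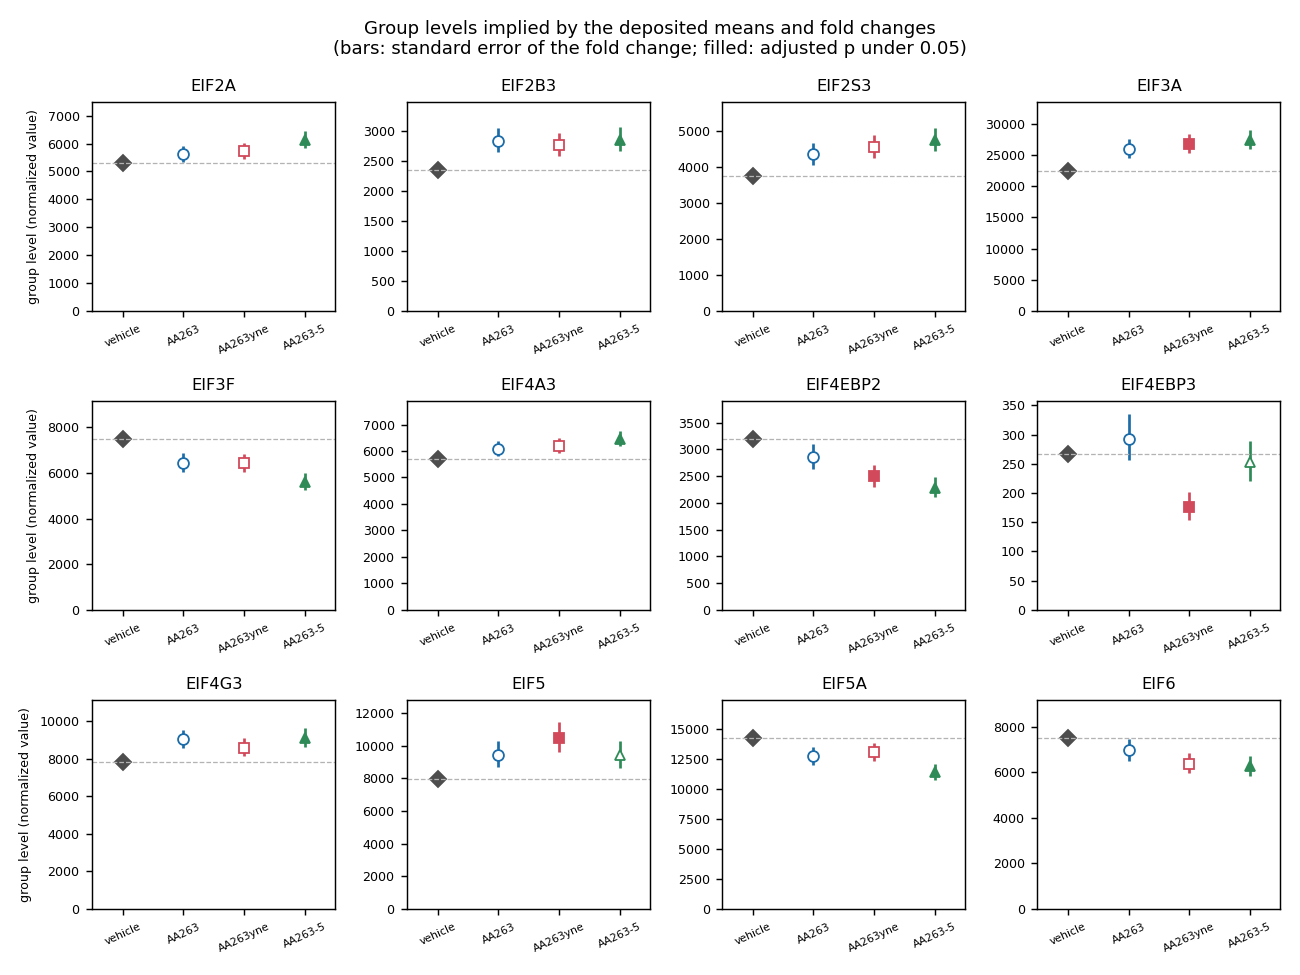
Levels in the 4 groups (y axis, normalized units from 0) of the 12 members called with at least 1 compound, as implied by the deposited mean and fold changes; bars are the SE of the fold change, filled symbols passed the test and the dashed line is vehicle. EIF4EBP2 went from 3203 with vehicle to 2283 with AA263-5 and EIF3A from 22539 to 27493, so that the changes are small next to the levels.

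Differences between the compounds were tested directly, since a call with one compound and not with another does not show that they differ. In the 3 pairs of compounds, 0 of the 51 members differed at an adjusted p of 0.05 (difference of the deposited log2 fold changes over the root mean square of their SEs, with Benjamini-Hochberg adjustment), where 0.0768% of all genes differed between AA263yne and AA263, 0.154% between AA263-5 and AA263 and 0.128% between AA263-5 and AA263yne. At an unadjusted p under 0.05 there were 2, 5 and 5 members, beside 5.22%, 6.59% and 7.72% of all genes. The median half-width of the 95% interval of these differences, before adjustment, was 0.19 in log2 units. Smaller differences were not detectable for a typical member, and after adjustment larger ones could fail to pass as well. EIF4EBP1, at -0.40 between AA263-5 and AA263, did not pass (adjusted p = 0.0868). The compounds are thus not shown to act alike.

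The nearest to a difference was EIF4EBP1, which had a log2 fold change 0.40 lower with AA263-5 than with AA263 (-0.40, 95% interval -0.62 to -0.19, adjusted p = 0.0868). As compared to AA263yne the difference was -0.32 (-0.53 to -0.11, adjusted p = 0.282). EIF4EBP3 differed by -0.73 between AA263yne and AA263 (-1.11 to -0.35, adjusted p = 0.113) and by 0.51 between AA263-5 and AA263yne (0.13 to 0.89). These intervals leave out 0 before adjustment only. For EIF4EBP2 the difference between AA263-5 and AA263 was -0.32 (-0.56 to -0.09, adjusted p = 0.410), and for EIF4ENIF1 it was -0.15 (-0.33 to 0.04). With AA263yne and with AA263-5, all 4 of these genes had a lower log2 fold change than with AA263, but none of the 4 passed the test. Of all 51 tested members, 27 were lower with AA263yne and 32 with AA263-5 than with AA263. Both comparisons share the AA263 samples.

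EIF2S3 and EIF5 had intervals that span 0 in each pair: EIF2S3 was 0.13 higher with AA263-5 than with AA263 (-0.07 to 0.32) and EIF5 was 0.15 higher with AA263yne than with AA263 (-0.10 to 0.40). EIF3F was 0.20 lower with AA263-5 than with AA263 (-0.20, interval -0.38 to -0.01, adjusted p = 0.716). EIF5A was lower with AA263-5 than with AA263yne (-0.20, interval -0.36 to -0.04, adjusted p = 0.444), and EIF2B2, EIF3L and EIF2D were the other members with an unadjusted p under 0.05 in some pair.

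**Figure D3:**
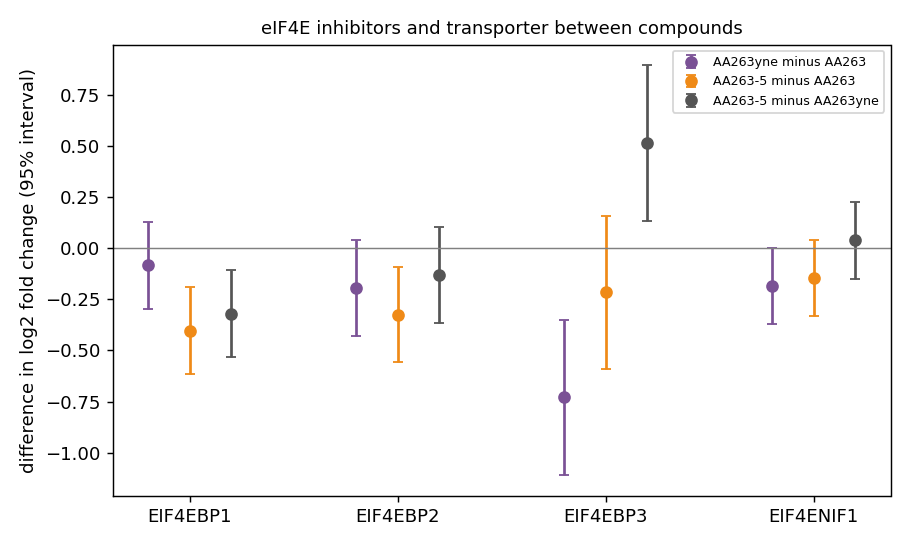
Difference in log2 fold change between compounds (y axis, bars are 95% intervals) for the 3 eIF4E-binding proteins and EIF4ENIF1. EIF4EBP1 is lower with AA263-5 than with AA263 (-0.40) and EIF4EBP3 is lower with AA263yne than with AA263 (-0.73), both with intervals that leave out 0 but with adjusted p of 0.0868 and 0.113.

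Fold changes followed the GC content of the transcript across all genes. Over the 10704 genes with a mean of at least 100 and a gene model, Spearman's rho between GC content and log2 fold change was -0.41 with AA263, -0.48 with AA263yne and -0.53 with AA263-5. Over the 48 members it was -0.22, -0.35 and -0.31. These are correlations across genes of the same libraries, given as a description. The 6 members called higher with AA263-5 had a GC content of 38.7% (EIF2A), 41.0% (EIF2S3), 43.2% (EIF3A), 46.3% (EIF4G3), 47.8% (EIF2B3) and 49.4% (EIF4A3), beside a median of 48.7% over all tested genes. The 4 called lower had 40.0% (EIF3F), 44.7% (EIF4EBP2), 56.6% (EIF5A) and 57.3% (EIF6).

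When the median fold change of genes of like GC content was subtracted, the calls with AA263-5 went from 6 higher and 4 lower to 1 higher and 5 lower among 50 members, while the shares of all genes went from 6.96% and 8.51% to 4.35% and 5.21%. EIF3F, EIF4EBP2 and EIF5A kept their calls, EIF3B, EIF3E and EIF2B2 gained one, and the other 7 lost theirs. Centring alone gave 2 higher and 6 lower, where 5.51% and 9.65% of all genes were called. With AA263yne, subtraction of the trend left 2 members lower, EIF4EBP2 and EIF3F, in place of 2 higher and 2 lower, where 2.73% of all genes were higher and 1.70% lower. The part of the GC trend in the single calls was not tested beyond this subtraction.

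**Figure D4:**
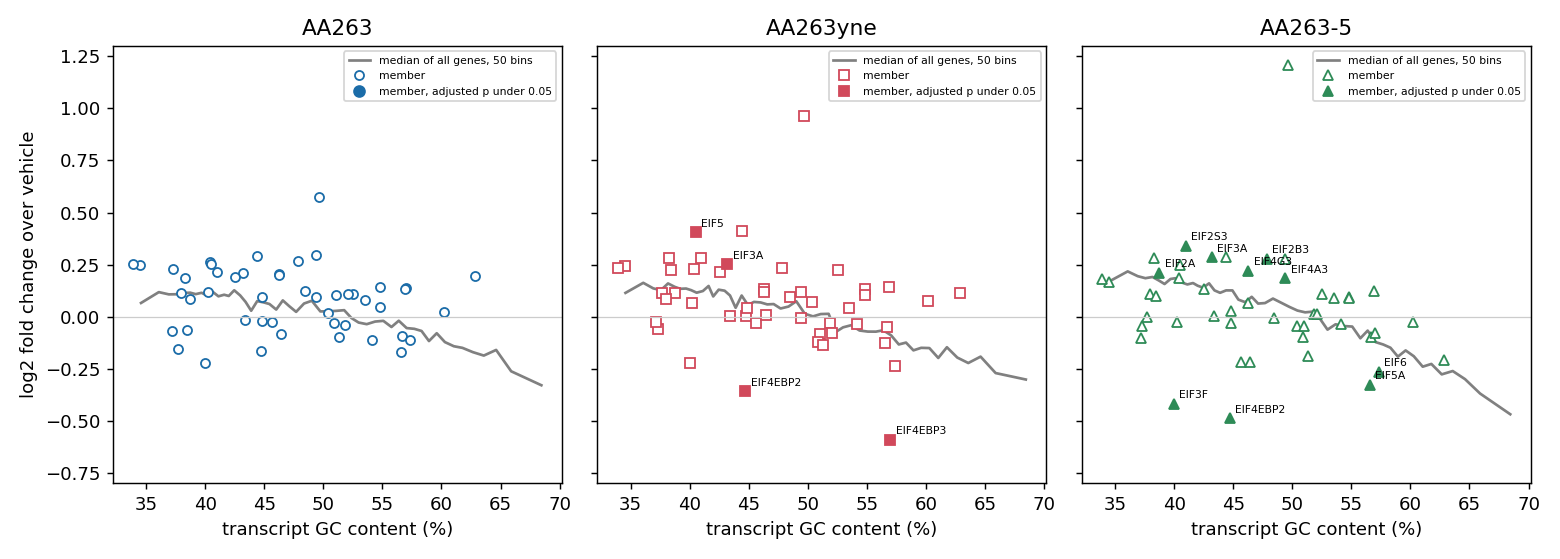
Log2 fold change over vehicle (y axis) against transcript GC content (x axis, %) for the 48 members with a mean of at least 100, 1 panel per compound; the grey line is the median of all tested genes in 50 bins and filled symbols passed the test. The grey line falls with GC content in each panel, and EIF3F and EIF4EBP2 lie well below it with AA263-5.

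Several initiation factor genes have processed pseudogenes or near copies, so their reads can be hard to place. For each of the 49 members, every window of 50 bases of the canonical transcript was looked up in the rest of the genome (GRCh38). No window of 18 members was found elsewhere, while 11 members had more than 20% of their windows at other places. These were EIF3C (66.2%) and its near copy EIF3CL (66.1%), EIF4B (61.1%), EIF4H (59.7%), EIF5AL1 (59.1%), EIF4E (53.5%), EIF1AX (51.0%), EIF5A (41.6%), EIF4A1 (34.5%), EIF2S2 (33.7%) and EIF2S3 (22.8%). The called members EIF2S3 and EIF5A are among them, and their values are uncertain to that extent. Matches inside the span of a member's own gene were left out, so a readthrough at the same place does not count. The called member EIF4EBP3, with no window elsewhere, overlaps its readthrough as given above, and its reads can be hard to place too. EIF5A and EIF5AL1 could share reads, and EIF1AX and EIF4E were listed at a vehicle level of only 7.43 and 74.3 per kilobase, as compared to 19568 for EIF3I and 19390 for EIF4G2, the 2 highest.

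**Figure D5:**
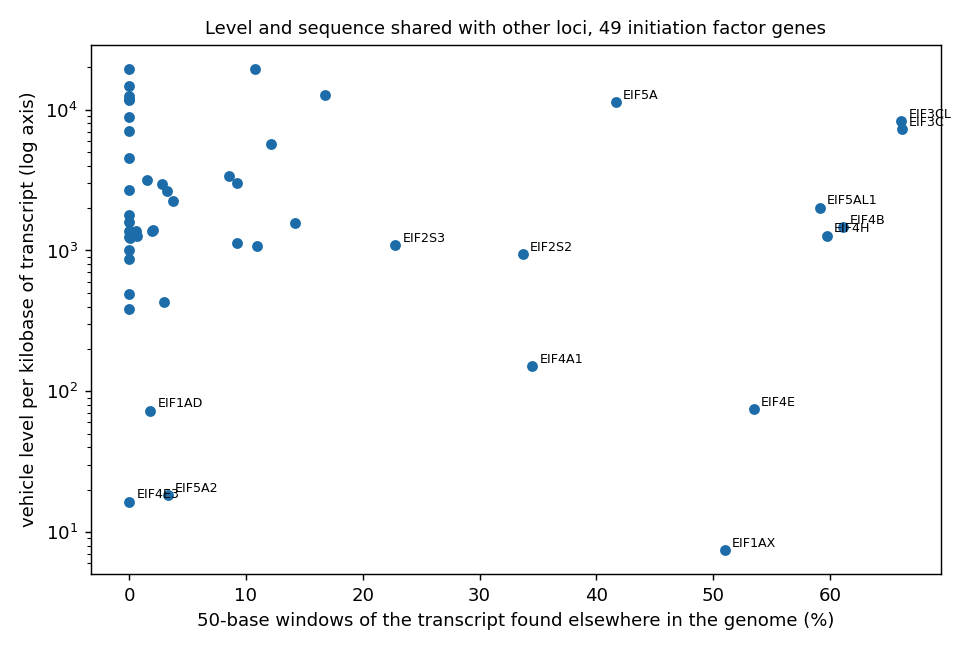
Vehicle level per kilobase of transcript (y axis, log scale) against the percentage of 50-base windows of the transcript found elsewhere in the genome (x axis) for the 49 initiation factor genes. EIF1AX, EIF4E and EIF4A1 combine many shared windows with a low level, whereas EIF3C, EIF3CL and EIF5A are high despite shared windows. EIF4E3 (0% of windows) and EIF5A2 (3.28%) are low with few or no shared windows.

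Lists of 54 genes around initiation were read in the same fits, and most of these genes did not pass either. Centring and removal of the GC trend were tried on the members only. The calls in these lists, here and in the next paragraph, rest on the deposited fold changes as they stand. Of the 54, 5 rose and 0 fell with AA263, 8 rose and 0 fell with AA263yne and 14 rose and 1 fell with AA263-5. Of all tested genes, as above, 2.67%, 3.8% and 6.96% were higher and 2.8%, 3.08% and 8.51% lower with AA263, AA263yne and AA263-5, and the lists were not tested against these shares. The largest changes were in the list of eIF2 kinases, phosphatase subunits and their regulators, of which 3, 4 and 4 of 13 rose. DNAJC3, an inhibitor of eIF2 kinases and known target of ATF6, rose by 1.32 ± 0.17, 1.92 ± 0.17 and 1.72 ± 0.17 on the log2 scale. EIF2AK3, which encodes PERK, rose by 0.50 ± 0.15, 0.69 ± 0.15 and 0.93 ± 0.15. PPP1R15B, the constitutive regulator that directs a phosphatase to eIF2, rose by 0.42, 0.53 and 0.46. NCK1 rose with AA263yne (0.60) and the phosphatase subunit PPP1CC with AA263-5 (0.25).

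Of 15 genes for poly(A) binding and regulation of the cap-binding complex, 1, 2 and 6 rose, where 2.67%, 3.8% and 6.96% of all genes did. DHX29, a helicase that helps scanning through structured leaders, rose with all 3 compounds (0.26, 0.25 and 0.44), and DDX3X rose with AA263yne (0.41) and AA263-5 (0.40). With AA263-5, PDCD4 (0.43), MTOR (0.21), RPS6KB1 (0.23) and RPS6KA3 (0.32) rose and RPS6KB2 fell (-0.41). PDCD4 binds and inhibits eIF4A, while the others of this group act in the signalling that phosphorylates initiation factors. Of 9 genes for reinitiation and recycling, ABCE1, which splits ribosomes after termination, rose with all 3 compounds (0.27, 0.38 and 0.36) and ABCF2 (0.25) and ABCF3 (0.34) with AA263-5. None of 11 elongation genes passed the Wald test with any compound, and 1, 0 and 1 of them had an unadjusted p under 0.05 with AA263, AA263yne and AA263-5, beside 17.4%, 20.9% and 27.3% of all genes. Of 6 termination genes, ETF1 rose with AA263yne (0.34) and PELO with AA263-5 (0.57).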

How the data were processed

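The authors aligned reads with DNAstar SeqManPro to GRCh38.p7, quantified expression (ArrayStar, QSeq) and used DESeq2 for comparisons of each compound against vehicle (version 1.40.1 per the processing notes, which name GRCh38 and GRCh37). The paper's methods describe whole transcriptome libraries and RPKM input, the labels poly(A)-selected stranded libraries, and the deposited means sum to 36.6 M. The deposited signal is the mean of values normalized by size factors over the 12 samples. The deposited log2 values are the fold change and its standard error, the deposited score is the Wald statistic, and the deposited p-value is its normal p or adjusted p. These authors' estimates per gene are all that the 3 tables hold. The paper's methods give one read depth for every sample, and the depth that each sample reached is not known here.

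From these, p-values were adjusted (Benjamini-Hochberg) over 15630 genes with a mean of at least 10, and compounds were compared through differences of fold changes (numpy 2.4.6, pandas 2.3.3, scipy 1.17.1). Group levels were solved from the mean and the 3 fold changes. GC content and windows came from GENCODE canonical transcripts and GRCh38. GC content was known for 85.5% of tested genes, and the trend was the median in 50 bins. The scripts were tested on simulated data. The members and lists were chosen with earlier results of these data known. Values are named for members called, for core subunits, for the extremes of a role among members with a mean of at least 100, and for pathway genes called; others were named after their values were seen. The design text speaks of biological replicates, and nothing tells whether they came from separate days.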

Additional observations from a re-analysis of the deposited data

How the results depend on the processing

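No paired analysis was possible because the tables hold no values per sample, and for the same reason no replicate could be left out. With AA263, the count of members called went from 0 to 2 when the GC trend was removed (EIF4EBP1 higher, EIF3F lower). Under that setting 1.96% of all genes were higher and 1.82% lower, beside 1 and 1 of 50 members. With AA263yne, the count of members went from 4 to 1 without a filter on low genes and to 1 with a minimum change of 1.5-fold. It went to 2 with the GC trend removed. With AA263-5, it went from 10 to 6 without a filter, to 0 with a minimum change of 1.5-fold and to 6 with the GC trend removed. The deposited adjusted p and a minimum mean of 100 each gave 6 with AA263yne, where EIF2S2 and EIF2S3 joined, and 10 with AA263-5. Centring gave 3 and 8. With AA263yne these were 1 higher and 2 lower of 51, where 3.21% and 3.59% of all genes were called. Shares of all genes are given here for centring and removal of the GC trend only, so the counts under the other settings have no background beside them. Between compounds the count was 0 under each alternative tried, including adjustment over the 3 pairs together. No member kept its call with a changed sign; members with values near 0, such as EIF2B1 and EIF4G2 with AA263-5, change sign on centring. Why the GC trend exists was not tested.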

Other observations

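Of the members, 8 start within 1000 bases of another tested gene on the opposite strand, with EIF1B and EIF1B-AS1 counted as each other's neighbour, and the neighbours passed no Wald test with AA263 or AA263yne after adjustment (3 and 2 of 8 had an unadjusted p under 0.05, as did 17.4% and 20.9% of all genes). With AA263-5, BANF1, which binds DNA at the nuclear envelope and starts 346 bases from EIF1AD, fell by 0.36 ± 0.11 on the log2 scale (adjusted p = 0.00859), where EIF1AD itself had 0.28 ± 0.19 (adjusted p = 0.365). GTF2H3, a subunit of the transcription factor TFIIH that starts 143 bases from EIF2B1, had 0.30 ± 0.11 with AA263yne (adjusted p = 0.0628), where EIF2B1 had 0.04. EIF1B-AS1 starts 9 bases from EIF1B and had an implied level of 40.4 with AA263 and 14.3 with vehicle (adjusted p = 0.168), where EIF1B had 0.19 ± 0.14. EIF3J-AS1 had -0.02, -0.13 and 0.08 with AA263, AA263yne and AA263-5. BANF1 was the 1 neighbour of 8 called with AA263-5, where 8.51% of all genes were lower, and strand use in the counting is not given in the sources used here.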
